A study of Mus musculus with 8 samples.

Results

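Nr4a1, Nr4a2 and Nr4a3 make up the Nr4a family of nuclear receptors, and all 3 were measured among the 22180 genes of this array experiment. They were chosen by name: each gene was represented by a probe set whose platform annotation gives 1 gene symbol. Each had a single such probe set (17315178 for Nr4a1, 17385374 for Nr4a2 and 17413945 for Nr4a3). No expression value entered that rule, but the members were chosen with earlier results of these data known.

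The neurons came from hippocampi of C57BL/6J embryos at E18.5, late in gestation, and were grown for 11 days in vitro in medium that received AraC, a drug that stops dividing cells. In 4 cultures KCl was added at 55 mM for 4 h, and 4 cultures were untreated; raised potassium depolarises neurons and opens their voltage-gated calcium channels. RNA was labelled for Affymetrix whole-transcript arrays, 1 array a culture. Each array had a mouse number of its own, and the labels do not say whether a number stands for an embryo, a dam or a pool, so the p-values measure the spread between these 8 samples.

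Nr4a proteins are nuclear receptors without a known natural hormone that switches them on in the usual way. Their ligand pocket is filled by bulky side chains, and their output is set largely by how much protein the cell makes. They bind the NBRE sequence as monomers and related paired sites as dimers, and Nr4a1 (Nur77) and Nr4a2 (Nurr1) can also pair with the retinoid X receptors, whereas Nr4a3 (Nor1) is not known to. All are immediate-early genes, transcribed within minutes of a stimulus without new protein synthesis, through calcium and cyclic AMP signals that reach the factors CREB, MEF2 and SRF. In the hippocampus they are known for their role in long-term memory, and Nr4a2 is known as well for making and maintaining midbrain dopaminergic neurons.

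The 250 bases before the transcription start are printed here because the letters at which CREB binds recur in all 3. Sequences and coordinates are RefSeq's, on mouse build GRCm38.p6, read 5′ to 3′ on the gene's own strand. Capitals mark each half-site of the cyclic AMP response element, TGACG, or CGTCA where it lies on the other strand. The Nr4a1 stretch is chr15:101266596-101266845 (plus strand), that of Nr4a2 is chr2:57124004-57124253 (minus strand) and that of Nr4a3 is chr4:48045055-48045304 (plus strand).
Nr4a1: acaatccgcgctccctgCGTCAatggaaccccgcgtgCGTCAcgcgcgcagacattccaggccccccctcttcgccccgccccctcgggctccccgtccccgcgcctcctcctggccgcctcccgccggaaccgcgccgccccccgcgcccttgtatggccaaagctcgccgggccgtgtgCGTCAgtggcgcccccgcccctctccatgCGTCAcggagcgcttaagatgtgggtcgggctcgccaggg
Nr4a2: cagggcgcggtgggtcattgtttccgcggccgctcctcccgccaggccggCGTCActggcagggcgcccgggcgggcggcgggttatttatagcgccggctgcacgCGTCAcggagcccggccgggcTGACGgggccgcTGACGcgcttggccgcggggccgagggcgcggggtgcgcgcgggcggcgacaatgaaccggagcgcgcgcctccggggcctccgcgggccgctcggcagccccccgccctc
Nr4a3: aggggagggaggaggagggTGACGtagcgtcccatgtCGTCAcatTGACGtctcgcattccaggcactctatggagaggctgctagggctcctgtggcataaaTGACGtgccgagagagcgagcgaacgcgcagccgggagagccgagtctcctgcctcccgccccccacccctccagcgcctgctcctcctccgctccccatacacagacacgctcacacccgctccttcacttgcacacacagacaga

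Each promoter held 4 half-sites in the window from 250 bases before to 50 after the start. Over both strands, 20.8% of 32817 mouse promoters of the same length held at least 1 half-site, and 0.232% held 4 or more. These promoters were rich in C and G, at 72.3% in Nr4a1, 81.7% in Nr4a2 and 64.7% in Nr4a3, against a median of 52.7% for all promoters. Among the 9678 promoters with at least 60% C and G, 0.558% held 4 or more half-sites. The arrangement differed between the genes. In Nr4a1 all 4 lay on the other strand, with first bases at -233, -213, -69 and -40, so 2 of them stood close to the start. In Nr4a2 they began at -200 and -144 on the other strand and at -123 and -111 on the gene's strand. In Nr4a3 they began at -231, -205 and -147 on the gene's strand and at -213 on the other strand.

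**Figure D1:**
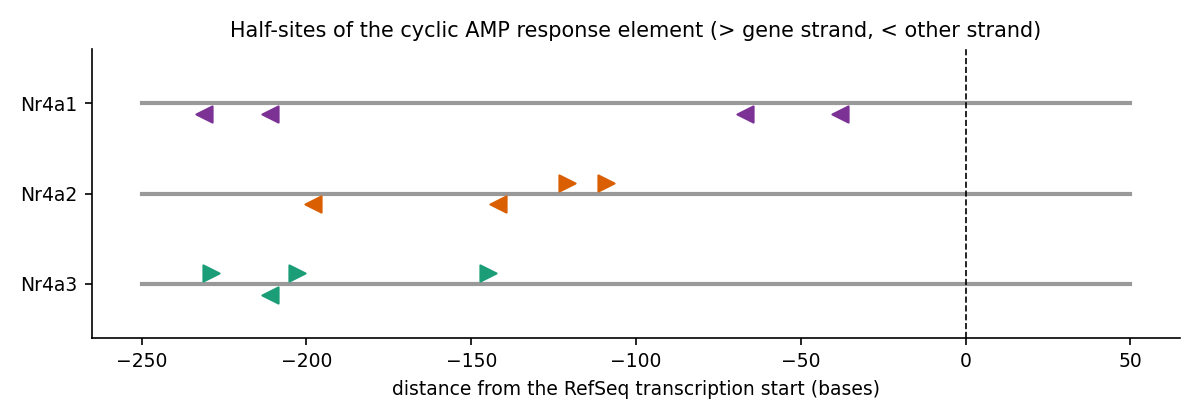
Positions of the cyclic AMP response element half-sites in the Nr4a promoters. The horizontal axis is the distance in bases from the RefSeq transcription start (dashed line), and each triangle is 1 half-site, pointing right on the gene's strand and left on the other strand. Each gene has 4, and those nearest to the start, at -69 and -40, are in Nr4a1.

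The full palindrome TGACGTCA was in none of the 3 windows, as in all but 1.79% of promoters. In a search added after the sequences had been seen, Nr4a3 held 2 copies of it with 1 mismatch, from -216 to -209 and from -205 to -198, each overlapping a half-site, and 0.786% of promoters held 2 or more such copies. All 4 half-sites of Nr4a1 lay inside the 7 letters TGCGTCA, a motif searched on both strands after the sequence had been seen. That motif was in 2.11% of promoters, and Nr4a1's was the 1 promoter that held it 4 times. The NBRE, AAAGGTCA, to which Nr4a proteins themselves bind, was in no Nr4a window in its exact form (1.51% of promoters). Neither was the exact SRF-binding CArG box (1.63%). Copies of the NBRE or the CArG box with 1 mismatch were not searched, so the windows may hold them. A MEF2 box stood in Nr4a2 alone, from -167 to -158 (3.19% of promoters), where it overlapped a TATAAA on the other strand from -164 to -159 (13.6%). These matches describe letters and do not show binding, and RefSeq's gene spans for Nr4a1 and Nr4a3 begin upstream of the starts used here.

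Nr4a1, which acts in lymphocytes and steroid-producing cells as well as in neurons, gave log2 probe set values of 10.91, 10.55, 10.87 and 10.8 in KCl replicates 1 to 4, against 7.86, 6.97, 5.57 and 6.64 in untreated replicates 1 to 4. The KCl arrays lay close together and the untreated arrays far apart, and the lowest KCl array was 2.68 above the highest untreated one. The means were 10.784 ± 0.165 in KCl and 6.763 ± 0.948 in untreated cultures (SD, n = 4 each). Nr4a1 rose by 4.02 on the log2 scale (SE 0.41, 95% interval 3.09 to 4.96), a 16.2-fold change (8.5 to 31), with an adjusted p of 0.00336 in limma. It had the 4th largest log2 change of the 22180 genes.

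Nr4a2, the member needed by dopaminergic neurons, gave 11.63, 11.07, 11.83 and 11.97 in KCl replicates 1 to 4, against 8.44, 7.11, 7.11 and 8.23 in untreated replicates 1 to 4. Here too no array of one group reached the other, with a gap of 2.63, and the second KCl array was the lowest of its group. The means were 11.624 ± 0.398 in KCl and 7.724 ± 0.711 in untreated cultures (SD, n = 4 each). Nr4a2 rose by 3.9 (SE 0.349, 95% interval 3.1 to 4.7), 14.9-fold (8.6 to 25.9), with limma's adjusted p at 0.00175, and came 5th by log2 change.

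Nr4a3, the member that does not pair with retinoid X receptors, gave 11.9, 11.72, 11.79 and 12.06 in KCl replicates 1 to 4, against 10.38, 9.96, 9.74 and 9.95 in untreated replicates 1 to 4. The groups were again apart, with a gap of 1.34, and both were tight. The means were 11.865 ± 0.151 in KCl and 10.006 ± 0.266 in untreated cultures (SD, n = 4 each). Nr4a3 rose by 1.86 (SE 0.146, 95% interval 1.53 to 2.19), 3.63-fold (2.88 to 4.57), with limma's adjusted p at 0.000914. By log2 change it came 49th, behind the other members, but by p it came 19th, ahead of Nr4a2 (28th) and Nr4a1 (40th), whose untreated arrays spread more.

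**Figure D2:**
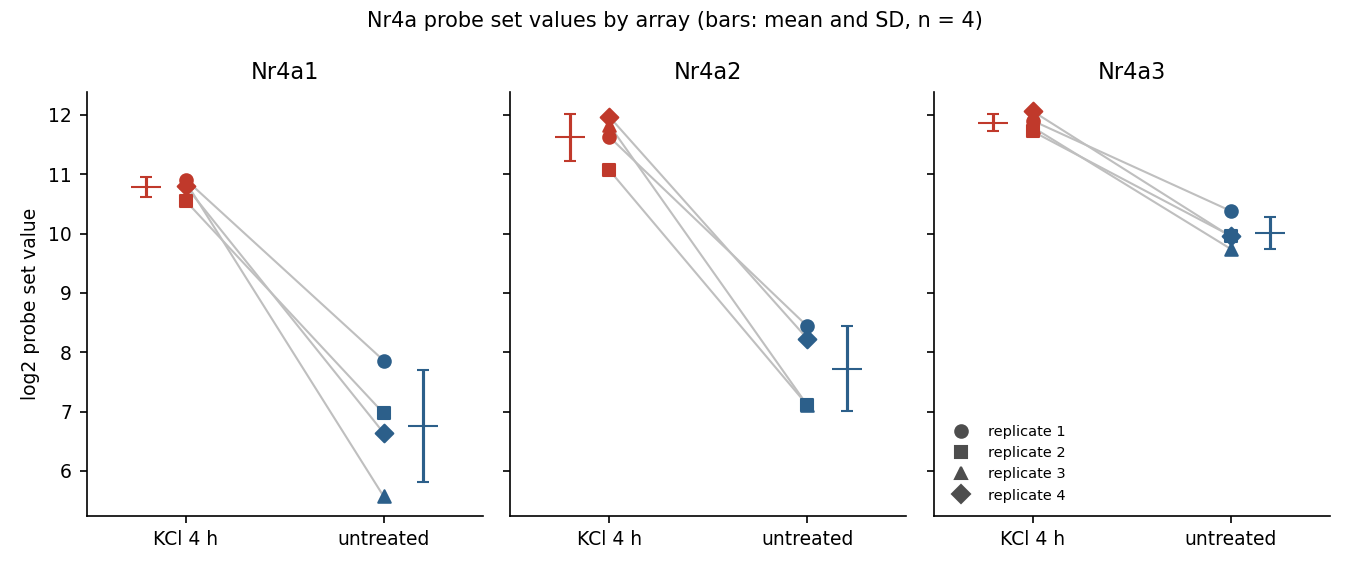
Log2 probe set values of the Nr4a genes on each array, KCl at the left and untreated at the right of each panel. Each marker is 1 array, grey lines join same-numbered arrays, and bars give mean and SD (n = 4); every KCl array lies above every untreated array, and the untreated Nr4a1 arrays spread from 5.57 to 7.86.

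In all, 297 of 22180 genes were called higher after KCl, or 1.34%, and 2.36% were called in either direction; every KCl array lay above every untreated array in 3.83% of genes. With the replicate number as a block the count of genes called higher was 539. The 3 Nr4a genes were among both the genes called higher and those with separated groups. An exact permutation test on each gene gave p = 0.0286 (two-sided), the smallest that 70 arrangements of 4 against 4 arrays allow. Because bulk RNA was measured, a rise in more cells and a larger rise per cell cannot be told apart. The calls did not depend on 1 array: leaving out each array in turn gave log2 changes of 3.62 to 4.39 for Nr4a1, 3.7 to 4.14 for Nr4a2 and 1.77 to 1.98 for Nr4a3, with adjusted p-values of at most 0.0176, 0.0114 and 0.00653 in that order of genes.

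Nr4a3 changed by less than either of the other members, while no difference between Nr4a1 and Nr4a2 was detected. The log2 change of Nr4a1 exceeded that of Nr4a3 by 2.16 (SE 0.36), a 4.48-fold larger ratio, and the 4 same-numbered pairs gave 1.53 to 3.26. For Nr4a2 the excess over Nr4a3 was 2.04 (SE 0.309), or 4.11-fold, with 1.63 to 2.68 over the pairs. Both differences gave p = 0.0286 in an exact permutation test on the per-array differences, and 0.0429 after adjustment over the 3 gene pairs. Nr4a1 and Nr4a2 differed by 0.12 (SE 0.387, exact permutation p = 0.743, adjusted 0.743), and the same-numbered pairs ran from -0.38 to 0.59, with 2 of 4 on the side of Nr4a1. That small difference turned to -0.07 without untreated replicate 3 and to -0.09 without untreated replicate 4. Taken by same-numbered pairs, a sign-flip test could not go below 0.125, which both differences from Nr4a3 reached. RMA values compress differences near background, and scanner files were not analysed here. The untreated means of Nr4a1 (6.763) and Nr4a2 (7.724) lay above the array medians of 4.44 to 4.48. How far the untreated values of these 2 genes were compressed was not tested. Nr4a3 had the highest mean of the 3 genes in both groups, at 11.865 in KCl and 10.006 in untreated cultures. Whether its change was limited at the bright end of the array's range was not tested.

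Within pairs, the change varied most for Nr4a1. Its log2 change was 3.05 in pair 1, 3.57 in pair 2, 5.31 in pair 3 and 4.16 in pair 4, which is 8.29-fold to 39.6-fold. For Nr4a2 the pairs gave 3.19, 3.95, 4.72 and 3.74, or 9.12-fold to 26.3-fold. For Nr4a3 they gave 1.52, 1.76, 2.04 and 2.12, or 2.87-fold to 4.33-fold. Pair 1 had the smallest change in all 3 genes, and pair 3 the largest in Nr4a1 and Nr4a2.

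**Figure D3:**
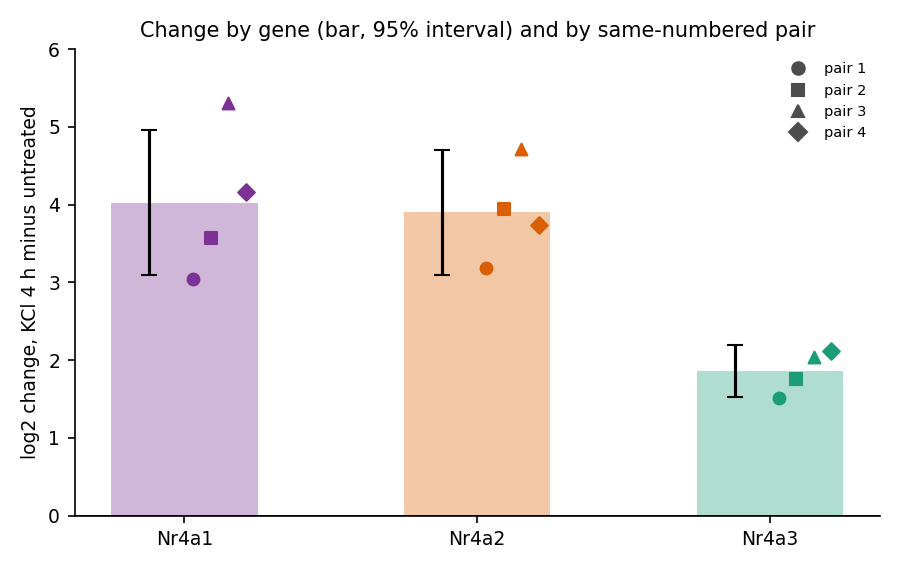
Log2 change of each Nr4a gene, KCl minus untreated. Bars give the change fitted by limma with its 95% interval, and markers give the 4 same-numbered pairs; Nr4a1 and Nr4a2 stand near 4 and Nr4a3 at 1.86, and pair 1 is the lowest in each gene.

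The untreated arrays spread more widely than the KCl arrays in all 3 genes. The values of Nr4a1 spanned 0.37 over the KCl arrays and 2.29 over the untreated ones. Those of Nr4a2 spanned 0.91 over the KCl and 1.33 over the untreated arrays, and those of Nr4a3 0.34 over the KCl and 0.63 over the untreated arrays. The SD of untreated over KCl arrays was 5.75 for Nr4a1, 1.79 for Nr4a2 and 1.77 for Nr4a3, with a median of 1.09 over all genes and 1.01 over those called higher. A wider untreated spread was not particular to this family. Of the Fos, Jun and Egr genes measured, all but Jund and Egr3 had the larger SD in the untreated arrays. In Fos the SD was 0.674 untreated and 0.109 in KCl, and in Fosb 1.001 untreated and 0.275 in KCl. Untreated replicate 1 was the highest untreated array for all 3 genes, at 1.1, 0.72 and 0.37 above the group mean for Nr4a1, Nr4a2 and Nr4a3. Untreated replicate 3 was the lowest for Nr4a1 and Nr4a3, at -1.19 and -0.26 from the mean, and shared the lowest place with replicate 2 for Nr4a2, at -0.61. KCl replicate 2 was the lowest KCl array for all 3, at -0.24, -0.56 and -0.15.

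Both arrays numbered 1 also stood apart from the others over all genes, with scores of -43.2 for the KCl and -48.6 for the untreated array on the first principal component, which took 36.6% of the variance. Their mean astrocyte marker values were the highest of each group, at 9.2 in the KCl and 9.51 in the untreated array. Their neuronal marker values were the lowest of each group, at 10.38 in the KCl and 10.31 in the untreated array, and so were those of glutamatergic markers (9.31 in the KCl, 9.41 in the untreated array) and GABAergic markers (5.9 in the KCl, 5.59 in the untreated array). Without both, Nr4a1 rose by 4.34 (adjusted p 0.00327), Nr4a2 by 4.14 (0.00499) and Nr4a3 by 1.97 (0.00188) in limma. The part of other cell types in the untreated values was not tested. Of the neuronal markers, 10 of 10 lay above the median gene, with array means of 10.38 to 10.74 in KCl and 10.31 to 10.75 in untreated cultures. Astrocyte markers did so for 7 of 8 (8.71 to 9.2 in KCl, 8.73 to 9.51 untreated), and microglial markers for 1 of 7. Markers of neural progenitors and cycling cells did so for 5 of 7, and were higher after KCl in each same-numbered pair, with array means of 6.23, 6.64, 6.62 and 5.88 in KCl replicates 1 to 4 and 5.98, 6.21, 5.69 and 5.5 in untreated replicates 1 to 4. Their log2 changes ran from 0.09 to 0.92 with a median of 0.51, and 0 of 7 were called in limma. There 1, Cdk1 (adjusted p 0.176), had an unadjusted p under 0.05, as did 13% of all genes. The part of such cells in the Nr4a changes was not tested. Of the astrocyte markers, the glutamate transporter gene Slc1a2 fell by 0.78 (adjusted p 0.0479 in limma); when single arrays were left out it passed only without untreated replicate 2, and its p reached 0.14 without KCl replicate 3. With the replicate block its p was 0.062.

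Across the 8 arrays the members moved closely together. Nr4a3 correlated at r = 0.99 with both Nr4a1 and Nr4a2, and Nr4a1 with Nr4a2 at 0.97, values that mostly carry the gap between the groups. The deviations from the group means, which leave that gap out, correlated at 0.85 for Nr4a1 with Nr4a3, 0.75 for Nr4a2 with Nr4a3 and 0.63 for Nr4a1 with Nr4a2. The 8 points of each gene come from the same arrays and share the normalization of those arrays, so these are descriptions.

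Among the 2422 genes with an SD of at least 0.5 over the arrays, the 5 outside the family most like Nr4a1 were Gadd45g (r = 0.989), a stress-inducible growth arrest gene, Arid5b (0.988), Aff1 (0.986), a scaffold of the elongation machinery, Sik1 (0.985), a kinase that holds back CREB coactivators, and Irs2 (0.984), an insulin receptor substrate. Gadd45g rose 9.92-fold, with 9.23, 8.91, 8.65 and 8.65 in KCl replicates 1 to 4 and 6.39, 5.73, 4.95 and 5.13 in untreated replicates 1 to 4. Its untreated arrays stood in the same order as those of Nr4a1, with replicate 1 highest and replicate 3 lowest. Irs2 passed the threshold at 0.0158 but missed it without KCl replicate 3 or KCl replicate 4, with p-values up to 0.0556.

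For Nr4a2 the most alike were Dipk2a (0.997), Fos (0.994), Fosb (0.991), Poc1b (0.991), which encodes a centriole protein, and Sik1 (0.989). Dipk2a, which encodes a secretory-pathway protein of the kinase-like fold, gave 8.56, 8.34, 8.88 and 8.89 in KCl replicates 1 to 4 and 7.12, 6.23, 6.38 and 6.8 in untreated replicates 1 to 4. It followed Nr4a2 within the groups too, with a correlation of deviations of 0.961. For Nr4a3 the list was Poc1b (0.991), Nfil3 (0.989), a transcriptional repressor, Tiparp (0.988), a mono-ADP-ribosyltransferase, Fos (0.987) and Jmjd1c (0.987), a JmjC-domain protein. Fos and Poc1b thus stood near both Nr4a2 and Nr4a3, and Sik1 near both Nr4a1 and Nr4a2.

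By deviations alone, Nr4a1 was most like Bhlhe41 (r = 0.984), a clock repressor that was not called, and Npas4 (0.961), a neuronal activity factor. Bhlhe41 had 5.02, 4.74, 4.7 and 4.88 in KCl replicates 1 to 4 and 6.27, 5.46, 4.08 and 5.21 in untreated replicates 1 to 4. Npas4 had 12.16, 12.06, 12.46 and 12.56 in KCl replicates 1 to 4 and 10.61, 8.14, 5.69 and 8.6 in untreated replicates 1 to 4. In both genes, as in Nr4a1, untreated replicate 1 was the highest and untreated replicate 3 the lowest of the untreated arrays. The log2 change of Npas4 was 4.05, close to that of Nr4a1, but its adjusted p was 0.0517 in limma, and with single arrays left out it passed only without untreated replicate 1 or untreated replicate 3. With the replicate number as a block its p was 0.0324. Next for Nr4a1 came Boc (0.954), the antiproliferative gene Btg2 (0.924) and Usp2 (0.909). After Dipk2a, Nr4a2 had Fos (0.911), Dusp14 (0.895), Zbtb1 (0.869) and Emx2 (0.869). Nr4a3 had Wdr90 (0.937), Serpinb6b (0.925), Lncpint (0.922), Slc15a2 (0.91) and Katna1 (0.893).

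The other nuclear receptors mostly gave no call. Of 45 measured receptors, out of 49 listed, 4 rose, 0 fell and 41 did not pass limma's test, and 7 of the 45 had an unadjusted p under 0.05. Over all genes 1.34% rose, 2.36% were called either way and 13% had an unadjusted p under 0.05; of the 42 receptors outside the family 2.38% were called, close to that background. Besides the Nr4a genes the receptor that rose was Rorb, a retinoid-related orphan receptor of cortical and retinal neurons, by 2.55 or 5.86-fold (SE 0.215, adjusted p 0.00132). Rorb averaged 8.039 ± 0.259 in KCl and 5.487 ± 0.409 in untreated cultures (SD, n = 4 each), which places its log2 change between those of Nr4a2 and Nr4a3. The 42 receptors outside the family had a median log2 change of 0.06, with -0.01 over all genes, and ran from -0.78 for the progesterone receptor Pgr to 2.55. Nr6a1 at 0.48 (adjusted p 0.067) and Nr2c1 at -0.56 (0.072), named after their values were seen, came next by p. The glucocorticoid receptor gene Nr3c1 changed by -0.04 and the thyroid hormone receptor gene Thra by 0.06, neither called.

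**Figure D4:**
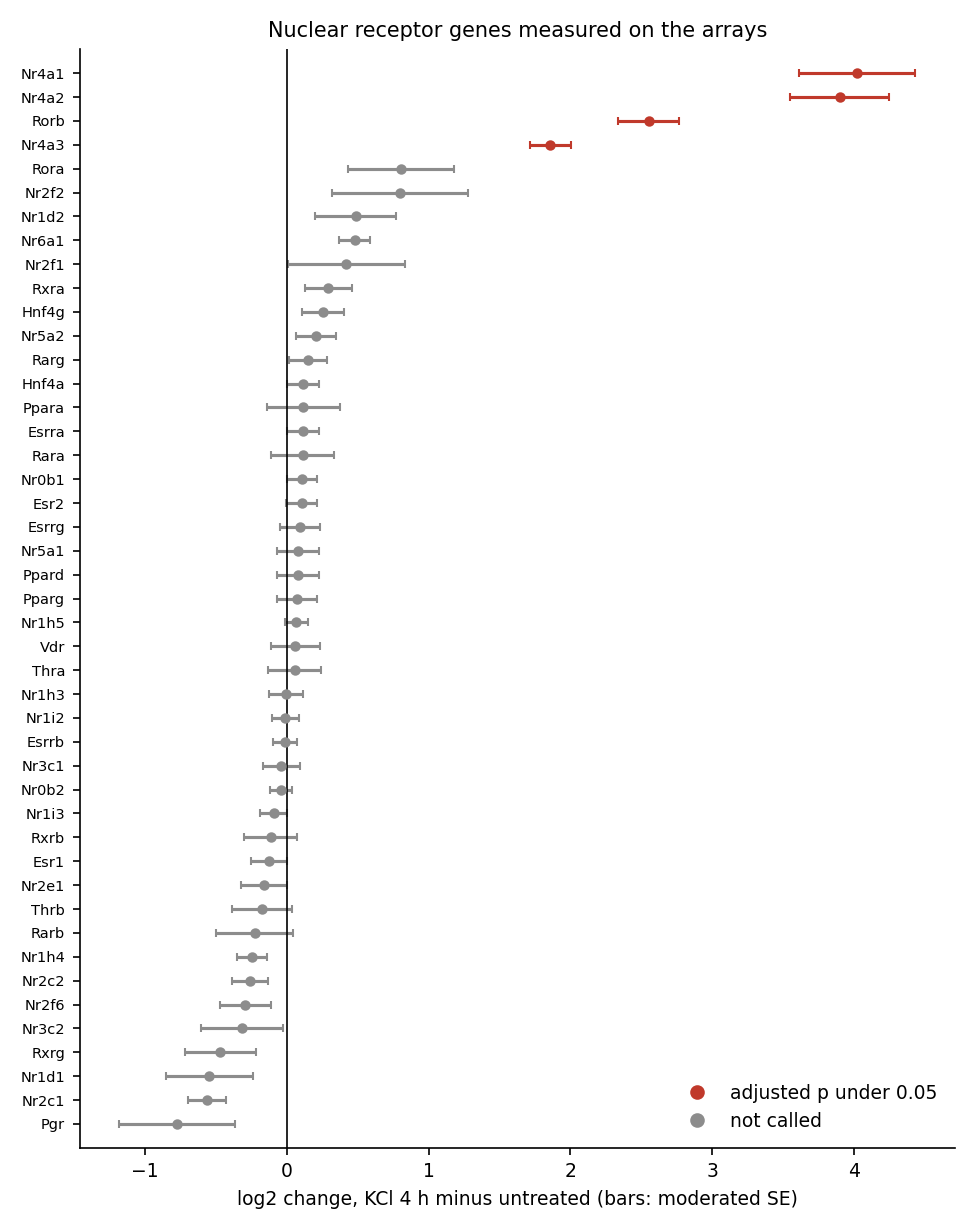
Log2 change, KCl minus untreated, of the 45 nuclear receptor genes measured, in order of size. Points give the fitted change, bars its moderated SE, and red marks an adjusted p under 0.05; Nr4a1, Nr4a2, Rorb and Nr4a3 stand apart from 41 receptors that were not called.

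The retinoid X receptors, the dimer partners of Nr4a1 and Nr4a2, were not called: Rxra changed by 0.29 (adjusted p 0.555), Rxrb by -0.11 (0.917) and Rxrg by -0.47 (0.526). Of 23 measured genes for partners and coregulators, out of 26, 2 rose, 0 fell and 21 did not pass, 5 had an unadjusted p under 0.05, and the median log2 change was 0.02. The share called, 8.7%, stands beside the 2.36% called over all genes. Of all genes, 13% had an unadjusted p under 0.05. Rcor1, a corepressor that Nr4a2 recruits in glia, rose by 1.14 or 2.2-fold (SE 0.205, adjusted p 0.028). Crebbp, a histone acetyltransferase that CREB recruits, rose by 0.48 or 1.39-fold (SE 0.086, adjusted p 0.0278). With the replicate block, where 539 genes rose against 297 without it, the coactivator gene Ncoa3 passed as well (log2 change 0.5, adjusted p 0.0445). The Rcor1 and Crebbp calls were fragile: Crebbp passed in 1 of the 8 fits that leave out an array, without untreated replicate 1, and Rcor1 in 3 of them, without untreated replicate 1, KCl replicate 1 or untreated replicate 4.

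Upstream of the Nr4a genes, the calcium, CREB and MEF2 list had 31 measured members of 36. Of these 2 rose, 0 fell and 29 did not pass, 6 had an unadjusted p under 0.05, and the median log2 change was 0.09. The share called was 6.45%, beside 2.36% over all genes, and it rests on 2 genes. An unadjusted p under 0.05 was found for 13% of all genes. Nfatc2, a factor that calcineurin sends to the nucleus, rose by 1.22 or 2.34-fold (SE 0.142, adjusted p 0.00514) and passed without any 1 array. Srf, which binds the CArG box, rose by 1.08 or 2.12-fold (SE 0.162, adjusted p 0.0154), and its p was 0.0501 without untreated replicate 3. The histone deacetylase gene Hdac5, whose product holds MEF2 factors back, passed with the replicate block alone (log2 change 0.78, adjusted p 0.0148). Over all genes that block took the count called higher from 297 to 539. Of the CREB and MEF2 genes measured, Creb1 (-0.15), Crem (0.5), Mef2a (-0.01), Mef2c (0.35) and Mef2d (0.21), none passed. Of 13 kinases that act on Nr4a proteins 8 were measured and 0 were called in limma, with or without the replicate number as a block; 0 had an unadjusted p under 0.05. Their smallest p-values belonged to Rps6ka3 at 0.35 (adjusted p 0.566), Gsk3b at -0.12 (0.828) and Mapk7 at -0.18 (0.871).

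Genes described elsewhere as targets of Nr4a receptors were measured at this 1 time of 4 h, when 2.36% of all genes were called either way. At that share, lists as short as these may hold no call. An unadjusted p under 0.05 was found for 13% of all genes. All 14 dopaminergic targets were measured and 0 were called in limma, also with the replicate block, 1 with an unadjusted p under 0.05. Ret, the receptor for GDNF-family factors, had the smallest p (log2 change 0.34, adjusted p 0.323), ahead of Gch1 at 0.34 (0.584) and Ddc at -0.2 (0.628), both of which serve dopamine synthesis. Of 11 steroidogenic and pituitary targets 9 were measured and 0 were called in limma, also with the replicate block, 0 at an unadjusted p under 0.05, with Cyp11b2 at 0.21 (0.569), Star at -0.24 (0.579) and Hsd3b2 at -0.15 (0.646). Both lists were dim. Group means of the dopaminergic targets ran from 3.762 (En1, KCl) to 5.681 (Vip, untreated). Those of the steroidogenic and pituitary targets ran from 3.598 (Cyp11b2) to 4.607 (Cyp11a1), both untreated. Array medians were 4.44 to 4.48, and whether genes this dim could show a change was not tested.

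Of 16 metabolic targets, known from muscle and liver, 15 were measured, 1 rose and 0 fell, 2 with an unadjusted p under 0.05. That 1 gene is 6.67% of the list, beside 1.34% that rose over all genes. The one that rose was Hk2, a hexokinase, by 0.64 or 1.56-fold (SE 0.113, adjusted p 0.0257 in limma). When single arrays were left out it passed in 2 of 8 fits, without KCl replicate 2 or untreated replicate 4. Hk2 was dim, averaging 5.036 in KCl and 4.393 in untreated cultures, and did not enter the fit on brighter genes alone. With the replicate block 2 rose, Hk2 and the pyruvate dehydrogenase kinase gene Pdk4 (log2 change 1, adjusted p 0.024). Over all genes the block gave more calls too, with 539 that rose and 446 that fell, against 297 and 227 without it. Of 17 genes tied to Nr4a receptors in memory, among them chaperones of the endoplasmic reticulum, 16 were measured, 2 rose and 0 fell. An unadjusted p under 0.05 was found for 7, of which 4 were higher and 3 lower, and for 13% of all genes. Fosl2, a Fos-family factor counted again with the Fos and Jun genes, rose by 1.73 or 3.32-fold (SE 0.152, adjusted p 0.00169). It averaged 9.813 ± 0.14 in KCl and 8.08 ± 0.289 in untreated cultures (SD, n = 4 each). Dnajb9, an ER co-chaperone, rose by 1.1 or 2.14-fold (SE 0.103, adjusted p 0.00219). Both passed without any 1 array, and the median of that list was 0.06. With the replicate block 1 member was called lower, the unfolded protein response factor gene Xbp1, which fell by 0.53 (adjusted p 0.0384). The share of members called higher was 12.5%, beside 1.34% over all genes.

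**Figure D5:**
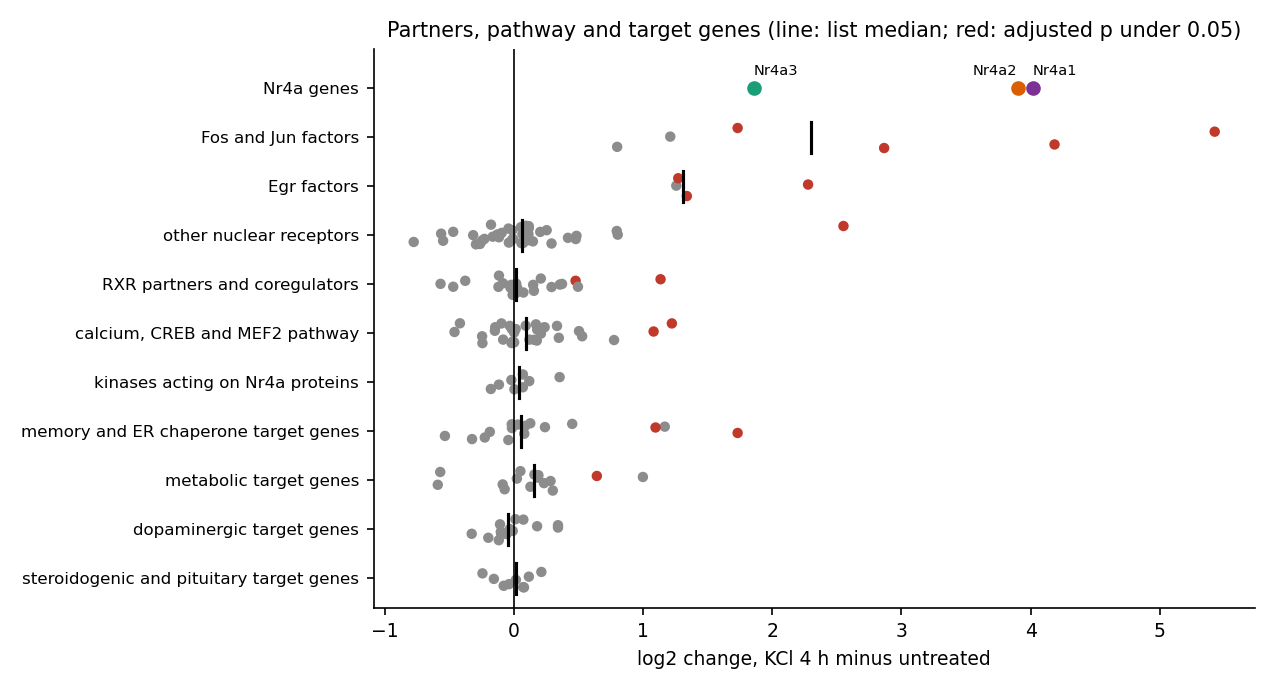
Log2 change, KCl minus untreated, of the Nr4a genes and of each list of other immediate-early factors, partners, pathway members and targets. Each point is 1 gene, red where the adjusted p is under 0.05, and black lines are list medians, which lie between -0.04 and 0.16 except for the Fos and Jun (2.3) and Egr (1.31) factors.

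Fos, Jun and Egr genes are immediate-early factors too. Of 6 Fos and Jun genes measured 4 rose (66.7%), and of 4 Egr genes 3 rose (75%), where 1.34% of all genes rose. Their median log2 changes were 2.3 and 1.31. With the replicate block in limma, where 539 genes rose against 297 without it, Jun passed as well (log2 change 1.21, adjusted p 0.0243). Fosb rose 43-fold, Fos 18.2-fold, Junb 7.29-fold and Egr4 4.85-fold, so Nr4a1 and Nr4a2 lay between Fos and Junb, and Nr4a3 between Egr4 and Fosl2. Whether these neighbours in the order differ was not tested. Egr2 (2.42-fold, adjusted p 0.0257) and Egr3 (2.53-fold, 0.0248) were called less firmly, in 3 and 4 of the 8 fits that leave out an array. Egr2 passed without untreated replicate 1, KCl replicate 1 or untreated replicate 2. The count of Egr genes that rose was 1 of 4 without KCl replicate 3, untreated replicate 4 or KCl replicate 4. Egr3 missed without untreated replicate 2, KCl replicate 3, untreated replicate 4 or KCl replicate 4. In the same promoter window, half-sites numbered 2 in Fos, Egr4 and the richest of the 5 Egr2 promoters, 1 in Fosb and Junb, and 0 in Fosl2, Jun, Jund and Rorb; Egr1 and Egr3 were not counted.

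Over the genome, 76 promoters of 69 genes held 4 or more half-sites, a cut equal to the number in each Nr4a promoter. Of these genes 62 were measured, 10 were called higher after KCl, the 3 Nr4a genes among them, and 1 was called lower, where 1.34% of all genes were called higher and 2.36% either way. The 292 promoters of genes called higher belonged to 240 of those 297 genes. Some genes thus counted more than once and others not at all. Of the 292 promoters, 51.4% held at least 1 half-site and 3.42% held 4 or more. All promoters, those of unmeasured genes included, gave 20.8% and 0.232%, and those with at least 60% C and G gave 31.6% and 0.558%. The promoters were not matched further on base composition. The Nr4a promoters were kept in these shares, which are descriptions. Among the 10 were Heca, which rose by 2.48 (adjusted p 4.76e-05), and Kif18a, a mitotic kinesin, which rose by 1.85 (0.000214), both named after their values were seen.

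The 5 measured genes beside the Nr4a genes were not called, and the neighbour on the other side of Nr4a2 was not measured here. Over all genes 2.36% were called either way, so so few genes may well hold no call. An unadjusted p under 0.05 was found for 13% of all genes. The nearest protein-coding neighbours in the RefSeq table were Grasp, a scaffold of glutamate receptors, at 0.64 (SE 0.414, adjusted p 0.639) and the autophagy gene Atg101 at -0.05 (0.977) around Nr4a1 on chromosome 15. Beside Nr4a2 on chromosome 2, the potassium channel gene Kcnj3 changed by 0.5 (adjusted p 0.336), and was the 1 neighbour of 5 with an unadjusted p under 0.05. Around Nr4a3 on chromosome 4, the translocon gene Sec61b changed by -0.15 (0.894) and the SNARE gene Stx17 by -0.13 (0.914).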

How the data were processed

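Probe set values were deposited by the authors on a log2 scale. The submitters' processing notes name RMA, a method for background correction, between-array normalization and probe summary, and Partek, without version, order or settings. The labels' protocols name the Affymetrix WT Plus labelling kit. Any batch adjustment, and the genome build of the array annotation, are not given in the sources used here. Of 34472 probe sets, 23521 carried 1 symbol in the platform annotation, 1814 carried several and 9137 were unnamed here. Where a gene had several probe sets (1082 genes), the one of highest mean was kept, leaving 22180 genes, 21994 of them with a RefSeq identifier. Array medians were 4.44 to 4.48 on the log2 scale, and arrays of a group correlated at r = 0.959 to 0.988 across genes. The number of arrays limits the precision.

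The KCl arrays were set against the untreated ones in limma 3.58.1 (R 4.3.3) by lmFit and eBayes with no term but the group. Tests were two-sided, p-values were adjusted by Benjamini-Hochberg over all 22180 genes, and the threshold was 0.05; the fit was tested on simulated data. Differences between Nr4a genes were tested by exact permutation of the arrays' log2 differences. Members, lists, tests and alternatives were chosen with earlier results of these data known. From each list the genes past the threshold (up to 6, by p) or else the 3 of smallest p are named, then the 5 genes most alike to each member in values and in deviations (predicted and clone names left out), and the nearest protein-coding genes on either side in RefSeq. Other genes are named to place the members or after their values were seen. Promoters were RefSeq's, on GRCm38.p6. Figures used matplotlib 3.10.9 in Python 3.11.15.

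Both groups carry replicate numbers 1 to 4 in their titles. Deviations from the group means correlated at 0.234 to 0.638 between same-numbered arrays, and all 8 arrays correlated best with their own number in the other group. Same-numbered arrays are therefore shown as pairs, and the replicate block and the sign-flip test use that pairing. The main limma fit and the exact permutation tests do not. No label ties a number to a litter, batch or day. Alternatives were the replicate block, repeated quantile normalization, median centring, brighter genes alone, the mean of all probe sets, every probe set, trended and robust eBayes, no moderation, array weights, a minimum of 1.5-fold, and leaving out single arrays or both arrays numbered 1.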

Additional observations from a re-analysis of the deposited data

Results flagged for a closer look

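Among the 54 genes named by rule, 108 groups of 4 arrays were looked at for 1 array far from the other 3, measured as its gap to the nearest array over the whole range of the group. It passed the limit of 0.829 in 5 groups, and chance passes about 1 group in 20; no Nr4a gene was among them. Btg2, among the genes most like Nr4a1 by deviations, had KCl replicate 3 lowest, at 8.62 beside 8.93 to 8.99 (ratio 0.84). Poc1b, among those most like Nr4a2 and Nr4a3, had KCl replicate 4 highest, at 7.36 beside 6.94 to 7.0 (0.85). Ret had KCl replicate 1 highest, at 5.08 beside 4.99 to 5.0 (0.88). Hsd3b2 had untreated replicate 4 lowest, at 3.97 beside 4.21 to 4.25 (0.88). Kcnj3, the neighbour of Nr4a2, had untreated replicate 1 lowest, at 8.03 beside 8.63 to 8.71 (0.88).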

How the results depend on the processing

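The 3 Nr4a genes passed the threshold in the same direction under all 20 alternatives run for each, with adjusted p-values of at most 0.0405 for Nr4a1, 0.0266 for Nr4a2 and 0.014 for Nr4a3. With the replicate block their adjusted p-values were 0.0034, 0.0012 and 0.0018, so the block changed no Nr4a call; beside the calls given with their genes, it also brought Emx2 (0.0311), Slc15a2 (0.0275) and Usp2 (0.0445) past the threshold, and it changed no other call among the genes named by rule. The counts over all genes moved more. With the replicate block 539 genes rose and 446 fell, against 297 and 227 without it; without moderation 89 rose and 40 fell, and with a minimum of 1.5-fold 40 rose and 1 fell. Trended and robust eBayes gave 150 genes that fell. Leaving out single arrays gave 118 to 254 that rose and 68 to 247 that fell, from fits with fewer arrays. The differences in change between Nr4a1 and Nr4a3 (2.16) and between Nr4a2 and Nr4a3 (2.04) cannot move with the replicate block. With equal groups the mean over same-numbered pairs equals the difference between group means. The sign-flip test on those pairs allows no p under 0.125. Without both arrays numbered 1 the differences from Nr4a3 were 2.37 for Nr4a1 and 2.16 for Nr4a2. Their p was 0.15 each after adjustment (exact permutation), and 3 arrays against 3 cannot pass. The difference between Nr4a1 and Nr4a2 ranged from -0.09 to 0.4 with single arrays left out and reversed without untreated replicate 3 (-0.07) or untreated replicate 4 (-0.09); the cause was not tested. Signal over background could not be read from the deposited values.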
